A study of Mus musculus with 10 samples.

Results

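The genes described here are 9 members of the epidermal growth factor (EGF) family and of the ERBB receptors to which these ligands bind. They were chosen by name as the receptors Egfr, Erbb2 and Erbb3 and the ligands Hbegf, Tgfa, Btc, Areg, Ereg and Nrg1, out of 50763 genes in the count table. RNA-seq had been carried out on lens epithelial explants of mice at 3 weeks of age on the FVB/N background, with 3 libraries from wild-type (WT) mice, 3 from the homozygous transgenic line OVE853 and 4 from the homozygous transgenic line OVE918. Both lines carry a human TGF-β1 in an active, secreted form, placed behind the murine αA-crystallin promoter, which is active in the lens. Each library was a pool, of up to 9 mice in WT and OVE853 and of up to 7 mice in OVE918, with males and females together. Explants of both lines held an anterior subcapsular plaque, and the whole epithelium was taken, not the plaque alone. The comparisons ask which receptors and ligands differ in RNA level between each line and WT, and between the lines.

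EGF family ligands are made as membrane-anchored precursors, and proteases of the ADAM group cut them from the cell surface. The released ligand joins ERBB receptors into pairs, whose tyrosine kinase domains then start the RAS-ERK, PI3K-AKT and STAT routes. EGFR binds HB-EGF, TGF-α, amphiregulin, epiregulin and betacellulin, whereas ERBB3 and ERBB4 bind neuregulins, and ERBB2 has no ligand of its own and acts as the partner of the others. In the lens, EGF receptor ligands are known as growth factors of the epithelial cells.

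Total counts on genes ranged from 24073311 to 31908525 per library. Tgfb1 lay between 47.6 and 59.7 CPM (counts scaled to the same total in each library) in WT, between 325 and 347 CPM in OVE853 and between 696 and 844 CPM in OVE918, so the libraries followed their labels, although mouse reads and cross-mapped reads of the human transgene cannot be told apart in this count. The lens epithelial transcription factor genes Foxe3 and Pax6 were present in every library, with lowest levels of 398 and 351 CPM. Of the 10 lens epithelium markers, edgeR called 4 lower in OVE853 and 6 lower in OVE918 and 0 higher, with median log2 fold changes of -0.41 and -0.35. Their summed level was 149100 to 157308 CPM in WT, 102591 to 116143 CPM in OVE853 and 127558 to 190006 CPM in OVE918. Most of this sum came from Cryaa, the αA-crystallin gene. Its level was 110758 to 112576 CPM in WT, 74415.3 to 85026.7 CPM in OVE853 and 96017.5 to 145008 CPM in OVE918. Per the paper, the transgene behind the promoter of this gene is overexpressed in epithelial and fiber cells. Lens epithelium and fiber are thus not told apart in this sum. Of 7 markers of non-pigmented ciliary epithelium, 3 were lower and 1 higher in OVE853 and 5 were lower in OVE918. Their summed level was 714 to 987 CPM in WT, 1185 to 1409 CPM in OVE853 and 761 to 910 CPM in OVE918. Of 6 endothelium markers, 1 was higher in OVE853 and 4 in OVE918, although their summed level was 54.0 to 131 CPM in WT, 40.7 to 54.2 CPM in OVE853 and 47.0 to 67.0 CPM in OVE918. WT replicate 3 stood apart from the other WT libraries in retinal neuron markers and had the highest sum of corneal and conjunctival markers. The endothelium and Müller glia sums were also highest in this library. The ciliary sum was not, at 714, 987 and 837 CPM in WT replicates 1, 2 and 3. Nor was that of 7 markers of retinal pigment epithelium and melanocytes, at 140, 43.7 and 59.3 CPM. The summed level of 10 retinal neuron markers was 91.2, 109 and 902 CPM in WT replicates 1, 2 and 3, against 23.0 to 139 CPM in the transgenic libraries. The summed level of 7 corneal and conjunctival markers was 230, 908 and 1520 CPM in the same order, most of it from Aldh3a1, and 26.2 to 90.6 CPM in the transgenic libraries. Krt12, the keratin that defines corneal epithelium, had 17, 17 and 140 counts in WT replicates 1, 2 and 3 and 0 counts in the 7 transgenic libraries. The 6 Müller glia markers summed to 4519 to 7342 CPM in WT and 2675 to 3387 CPM in the transgenic libraries, with 6 of 6 called lower in OVE853 and 5 of 6 in OVE918. This list shares Dkk3 with the lens epithelium list. It also holds Apoe and Slc1a3, from sets of reduced genes of which the paper found most to be elevated in normal lens epithelium. Lens cells and glia cannot be told apart in this sum. The retinal neuron list likewise holds Calb2, from such a set. It also holds Stmn3 and Sncg, which the paper lists with Calb2 among the top genes reduced in both lines. Lens cells and retinal neurons are thus not fully separated by that sum either. The part of these marker shifts in the members' changes was not tested. Where WT replicate 3 changed a member's result, the value without it is given as well.

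Of the 9 members, 7 passed the filter on low counts and entered the quasi-likelihood test of edgeR, whose p-values were adjusted by the Benjamini-Hochberg method over 18058 genes (FDR). A gene is called changed at an FDR of at most 0.05, and a differentially expressed gene (DEG) is also changed by at least 2-fold, or 1 on the log2 scale. In OVE853, 3 members were DEGs (1 elevated, 2 reduced), where 6.89% of all tested genes were DEGs (3.17% elevated, 3.72% reduced). In OVE918, 3 members were DEGs (1 elevated, 2 reduced), where 8.79% of all tested genes were DEGs (3.45% elevated, 5.34% reduced). Egfr and Hbegf were the reduced members and Erbb3 was the elevated member in each line. By FDR alone there were 3 members in OVE853, against 13.6% of all genes, and 4 in OVE918, against 16.9% of all genes, the added member being the reduced Tgfa. Between the lines, 0 members were called, against 0.377% of all genes.

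**Figure D1:**
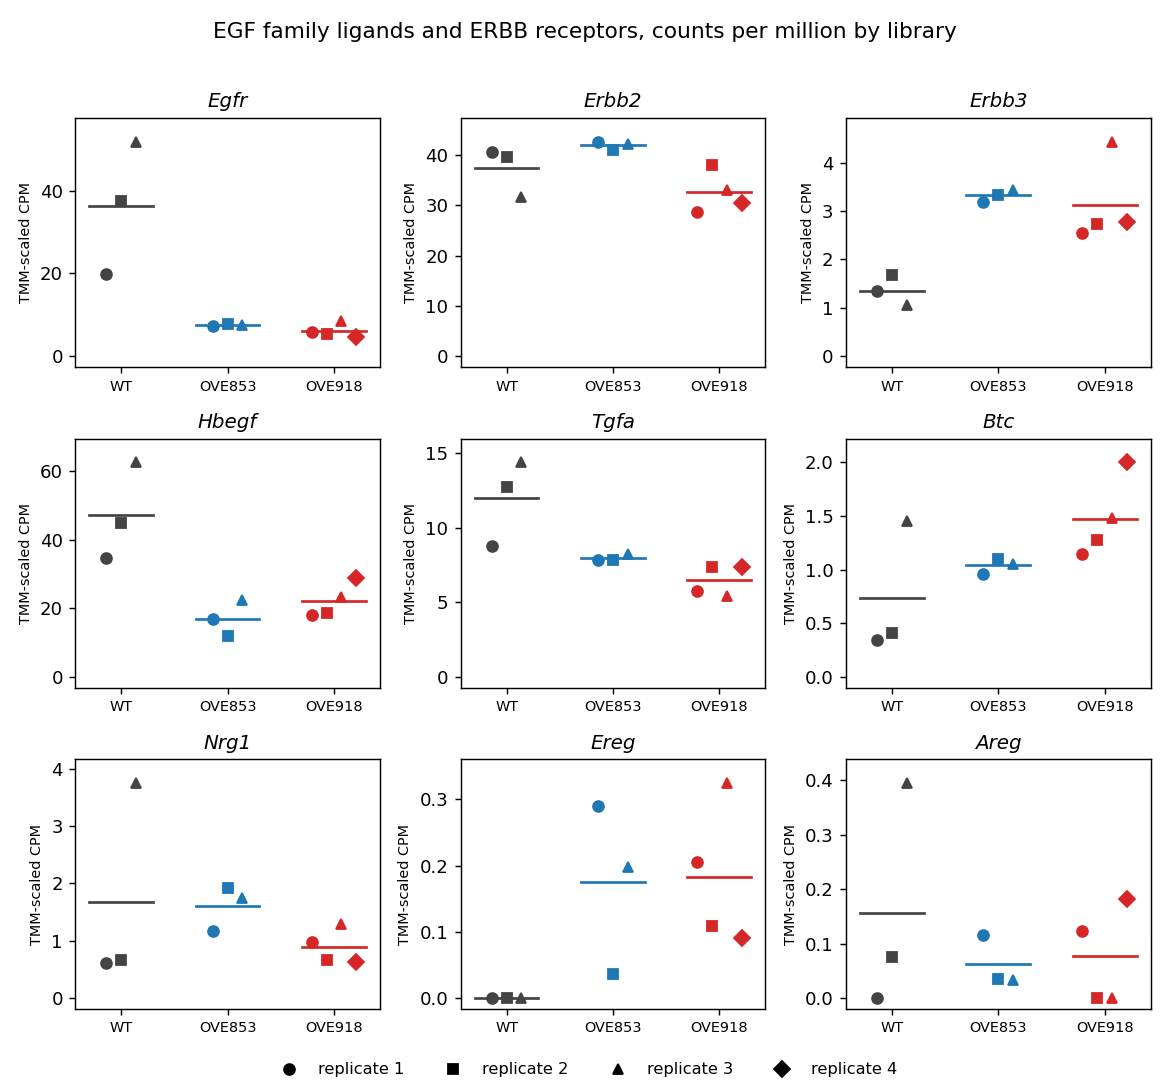
CPM of the 9 members (linear vertical axis, scaled by TMM) in each library of WT, OVE853 and OVE918, with 1 point per library, the marker shape giving the replicate number and the horizontal line the group mean. The 7 transgenic libraries lie below every WT library for Egfr and Hbegf and above every WT library for Erbb3, while Btc and Nrg1 each have 1 high WT library, replicate 3.

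Egfr, which encodes the receptor of HB-EGF and TGF-α, showed the largest fold difference from WT among the 7 tested members in both lines. The gene is on the plus strand of chr11:16702198-16868158 (GRCm39). Egfr was measured at 19.8, 37.5 and 51.9 CPM in WT replicates 1, 2 and 3. In OVE853 it was at 7.38, 7.81 and 7.55 CPM, and in OVE918 at 5.91, 5.49, 8.47 and 4.68 CPM. All 7 transgenic libraries lay below the lowest WT library, and the 3 WT libraries spanned a 2.62-fold range against 1.06-fold in OVE853 and 1.81-fold in OVE918. The log2 fold change was -2.26 in OVE853 (SE 0.32, edgeR FDR 0.00193), or 4.80-fold lower, and -2.57 in OVE918 (SE 0.29, edgeR FDR 0.000308), or 5.92-fold lower. The order of the WT libraries in Egfr was that of the corneal and conjunctival marker sum and the reverse of that of the lens fiber marker sum. The fiber sum was 73232, 46441.5 and 34687.7 CPM in WT replicates 1, 2 and 3. It was 33593.8 to 59292.7 CPM in OVE853 and 50743.3 to 102105 CPM in OVE918. The part of either sum in the result was not tested. Without WT replicate 3, the log2 fold change was -1.95 in OVE853 and -2.22 in OVE918, with edgeR FDRs of 0.00108 and 0.000160. In these bulk samples, fewer cells of a type and less RNA per cell cannot be told apart.

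The sequence before the transcription start is shown for Egfr and Tgfa, which were both reduced in OVE918, and for Erbb2, for which no change was called. Each is the 250 bases upstream of the start in RefSeq on GRCm38.p6, whose positions differ from the GRCm39 positions given for the genes. Windows were taken for 5 of the 9 members, Areg, Btc, Egfr, Erbb2 and Tgfa. The windows of Hbegf, which was reduced in both lines, and of Erbb3, Ereg and Nrg1 are not described here. All 3 are printed in the direction of transcription, from the plus strand of chr11:16751953-16752202 for Egfr, chr11:98412234-98412483 for Erbb2 and chr6:86194972-86195221 for Tgfa. Capitals mark the GC box GGGCGG, the core of the binding site of SP1, or its complement CCGCCC.
Egfr: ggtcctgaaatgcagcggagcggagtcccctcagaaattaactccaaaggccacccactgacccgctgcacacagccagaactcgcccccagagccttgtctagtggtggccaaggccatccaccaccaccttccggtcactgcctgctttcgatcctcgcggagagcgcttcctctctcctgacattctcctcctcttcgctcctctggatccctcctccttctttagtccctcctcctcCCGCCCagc
Erbb2: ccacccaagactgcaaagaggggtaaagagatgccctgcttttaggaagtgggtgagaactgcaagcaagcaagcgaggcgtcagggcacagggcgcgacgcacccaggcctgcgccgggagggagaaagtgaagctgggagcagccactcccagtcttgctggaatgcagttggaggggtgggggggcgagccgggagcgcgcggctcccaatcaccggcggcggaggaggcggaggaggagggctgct
Tgfa: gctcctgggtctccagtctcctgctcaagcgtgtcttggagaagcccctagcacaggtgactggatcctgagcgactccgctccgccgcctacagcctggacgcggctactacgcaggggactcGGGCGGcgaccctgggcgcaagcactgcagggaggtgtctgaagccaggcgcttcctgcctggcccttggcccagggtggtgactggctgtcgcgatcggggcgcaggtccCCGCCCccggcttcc
These windows held 1 GC box for Egfr, 0 for Erbb2 and 2 for Tgfa, and 32.7% of 32851 promoter windows of this length held at least 1 on either strand. All motifs were searched on both strands, and none overlapped another. The AP-1 motif TGANTCA was found in 0 of the 3 windows and in 6.75% of all windows. The SMAD motif CAGAC was found in 1 of the 3 windows, that of Tgfa, and in 42.2% of all windows. The G and C bases made up 60.8% of the Egfr window, 66.0% of the Erbb2 window and 69.2% of the Tgfa window. The windows of Areg and Btc, which are not printed, held 1 and 0 GC boxes. Whether the motif goes with the changes was not tested.

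Erbb3, which encodes the neuregulin receptor with an impaired kinase domain, was elevated in both lines from a low level. Its place is the minus strand of chr10:128403392-128425811. Erbb3 was at 1.34, 1.67 and 1.05 CPM in WT, from 31 to 45 counts per library. It was at 3.20, 3.34 and 3.43 CPM in OVE853 and at 2.54, 2.72, 4.43 and 2.77 CPM in OVE918. The lowest transgenic library was above the highest WT library, and OVE918 replicate 3 was the highest of all. Relative to WT, the log2 fold change was 1.29 in OVE853 (SE 0.28, edgeR FDR 0.0148), or 2.45-fold higher, and 1.20 in OVE918 (SE 0.27, edgeR FDR 0.0108), or 2.30-fold higher. The call in OVE853 was lost without OVE853 replicate 1 (FDR 0.0520) and without OVE853 replicate 3 (FDR 0.0607), whereas that in OVE918 held in all 16 alternatives that could test it, at FDRs of at most 0.0454. Over single libraries left out, the log2 fold change in OVE918 was 0.98 to 1.40. Its lowest value is under the fold minimum of a DEG. WT replicate 3 was the lowest WT library, and without it the log2 fold changes were 1.10 and 1.04.

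Erbb2, which encodes the receptor without a ligand, was not called in either line. Erbb2 is found on the plus strand of chr11:98303203-98328542. Erbb2 was at 40.7, 39.6 and 31.7 CPM in WT, at 42.7, 41.1 and 42.2 CPM in OVE853 and at 28.7, 38.1, 33.1 and 30.5 CPM in OVE918. The OVE853 libraries lay narrowly above all WT libraries and clear of all OVE918 libraries, whereas WT and OVE918 overlapped. The log2 fold change was 0.17 in OVE853 (SE 0.13, FDR 0.369) and -0.19 in OVE918 (SE 0.12, FDR 0.278). Erbb4, the fourth receptor gene and a receptor of neuregulins, was at 27.1 to 54.5 CPM in WT, 49.9 to 55.1 CPM in OVE853 and 36.3 to 67.8 CPM in OVE918. Its groups overlapped, with log2 fold changes of 0.35 (SE 0.26, FDR 0.384) and 0.34 (SE 0.25, FDR 0.377).

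To compare receptors with each other, counts were divided by exon length (FPKM, fragments per kilobase of exon at the CPM scale), and each receptor was expressed as a share of the summed FPKM of the 4 receptor genes. Egfr made up 12.5%, 23.2% and 35.6% of the receptor FPKM in WT replicates 1, 2 and 3. The Egfr share was 5.07% ± 0.115 (SD, n = 3) in OVE853 and 4.86% ± 1.10 (SD, n = 4) in OVE918, so no transgenic library reached the lowest WT share. The Erbb3 share was 1.58% ± 0.288 (SD, n = 3) in WT, 4.04% ± 0.139 (SD, n = 3) in OVE853 and 4.49% ± 1.08 (SD, n = 4) in OVE918. Erbb2 held the largest share in every library, at 51.6% ± 4.48 in WT, 60.4% ± 1.59 in OVE853 and 55.5% ± 4.14 in OVE918 (SD). The Erbb4 share was 23.0% ± 7.08, 30.5% ± 1.46 and 35.2% ± 4.00 (SD) in the same order. In WT the Erbb4 share ran in the opposite order to the Egfr share over the 3 libraries. These shares add up to the whole, so a lower share of any gene means higher shares of the others, and they were not tested.

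**Figure D2:**
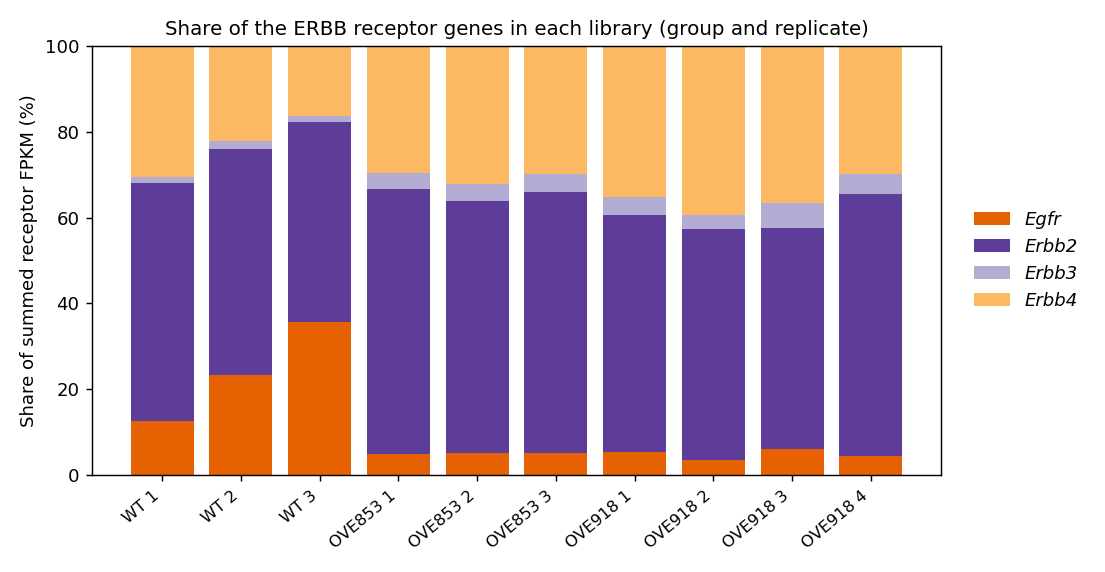
Stacked bars of the share (%, linear axis) of Egfr, Erbb2, Erbb3 and Erbb4 in the summed receptor FPKM, with 1 bar per library named by group and replicate. The Egfr segment spans 12.5% to 35.6% in WT and 3.61% to 6.14% in the 7 transgenic libraries, and the Erbb3 segment is at most 1.89% in WT and at least 3.26% in the transgenic libraries.

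Among the ligands, Hbegf, which encodes heparin-binding EGF-like growth factor, was reduced in both lines. Hbegf is on the minus strand of chr18:36637980-36649677. Hbegf was at 34.7, 44.9 and 62.6 CPM in WT, at 16.9, 11.9 and 22.4 CPM in OVE853 and at 18.1, 18.7, 23.2 and 28.9 CPM in OVE918. All transgenic libraries lay below the lowest WT library, and the lines overlapped each other. Relative to WT, the log2 fold change was -1.47 in OVE853 (SE 0.28, edgeR FDR 0.00894), or 2.78-fold lower, and -1.09 in OVE918 (SE 0.25, edgeR FDR 0.0152), or 2.13-fold lower. The call held in each of the 17 alternatives in both lines, with FDRs of at most 0.0397 and 0.0439. Without WT replicate 3 the log2 fold change in OVE918 was -0.85 (FDR 0.0360), which is under the fold minimum of a DEG.

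Tgfa, which encodes TGF-α, was reduced in OVE918 by less than 2-fold. Tgfa is on the plus strand of chr6:86172041-86252728. Tgfa was at 8.81, 12.8 and 14.4 CPM in WT, at 7.87, 7.85 and 8.27 CPM in OVE853 and at 5.79, 7.38, 5.41 and 7.40 CPM in OVE918. The 3 groups did not overlap, with WT highest and OVE918 lowest, and WT replicate 1 was close to OVE853. The log2 fold change was -0.89 in OVE918 (SE 0.18, edgeR FDR 0.00745) and -0.58 in OVE853 (SE 0.20, edgeR FDR 0.0709). In OVE853 the gene was called by DESeq2 (FDR 0.0286), by limma voom (FDR 0.0113) and without WT replicate 1 (edgeR FDR 0.0170), with log2 fold changes of -0.60, -0.58 and -0.76.

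Btc, which encodes betacellulin, a ligand of EGFR and ERBB4, was not called by edgeR or DESeq2 with all libraries, and the edgeR call turned on 1 WT library. Btc is on the minus strand of chr5:91505120-91550883. Btc was at 0.345, 0.409 and 1.45 CPM in WT, at 0.959, 1.10 and 1.05 CPM in OVE853 and at 1.15, 1.27, 1.48 and 2.00 CPM in OVE918. WT replicates 1 and 2 lay below all 7 transgenic libraries and WT replicate 3 within the OVE918 range. Relative to WT, the log2 fold change was 0.47 in OVE853 (SE 0.49, edgeR FDR 0.530) and 0.98 in OVE918 (SE 0.47, edgeR FDR 0.174). Without WT replicate 3 it was 1.41 in OVE853 (edgeR FDR 0.0405) and 1.94 in OVE918 (edgeR FDR 0.00443). Limma voom with sample weights called Btc from all 10 libraries, with 1.16 in OVE853 (FDR 0.0349) and 1.59 in OVE918 (FDR 0.00807). That library also had the highest retinal neuron and corneal marker sums, and their part in its Btc level was not tested.

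Nrg1, which encodes neuregulin 1, a ligand of ERBB3 and ERBB4, was not called in either line. Nrg1 is on the minus strand of chr8:32303906-33374825. Nrg1 was at 0.604, 0.670 and 3.75 CPM in WT, at 1.16, 1.92 and 1.75 CPM in OVE853 and at 0.985, 0.654, 1.30 and 0.635 CPM in OVE918. WT replicate 3 was above every other library, and the other WT libraries were below all OVE853 libraries. The log2 fold change was -0.08 in OVE853 (SE 0.62, FDR 0.945) and -0.91 in OVE918 (SE 0.60, FDR 0.319). Without WT replicate 3 the direction turned, to 1.29 in OVE853 (FDR 0.0810) and 0.48 in OVE918 (FDR 0.522).

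Areg and Ereg, which encode amphiregulin and epiregulin, had too few counts to pass the filter of the main setting. An alternative with no filter beyond 1 count included them, and its values for them are not given here. They lie beside each other on the plus strand, Ereg at chr5:91222157-91241505 and Areg at chr5:91287451-91296291, 45.9 kb apart, and Btc begins 209 kb beyond Areg. Areg had 0, 2 and 12 counts in WT, 4, 1 and 1 in OVE853 and 3, 0, 0 and 4 in OVE918. Most of the WT counts thus came from replicate 3, and the groups overlapped. The exact permutation test on CPM gave a two-sided p of 0.7 for OVE853 and 0.629 for OVE918 against WT. Ereg had 0 counts in all 3 WT libraries, 10, 1 and 6 counts in OVE853 and 5, 3, 9 and 2 counts in OVE918. Every transgenic library held at least 1 Ereg count, whereas 0 counts in WT allow a level of up to 0.0373 CPM over the group, from 3 counts. The level of Ereg was 4.90 times that limit in OVE853, with 17 counts or 0.183 CPM over the group, and 5.01 times in OVE918, with 19 counts or 0.187 CPM over the group. Over the groups, the lower ends of the exact Poisson 95% intervals, 0.107 and 0.113 CPM, were 2.86 times that limit in OVE853 and 3.02 times in OVE918. The upper end of this interval in WT was 0.0459 CPM, which is above the limit used. Among single libraries, OVE853 replicate 2 was at 0.0355 CPM, below the limit. The exact permutation test gave a two-sided p of 0.1 in OVE853, the smallest that 3 against 3 libraries allow, and 0.0571 in OVE918, where the smallest is 0.0286. These limits and intervals cover counting error only.

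**Figure D3:**
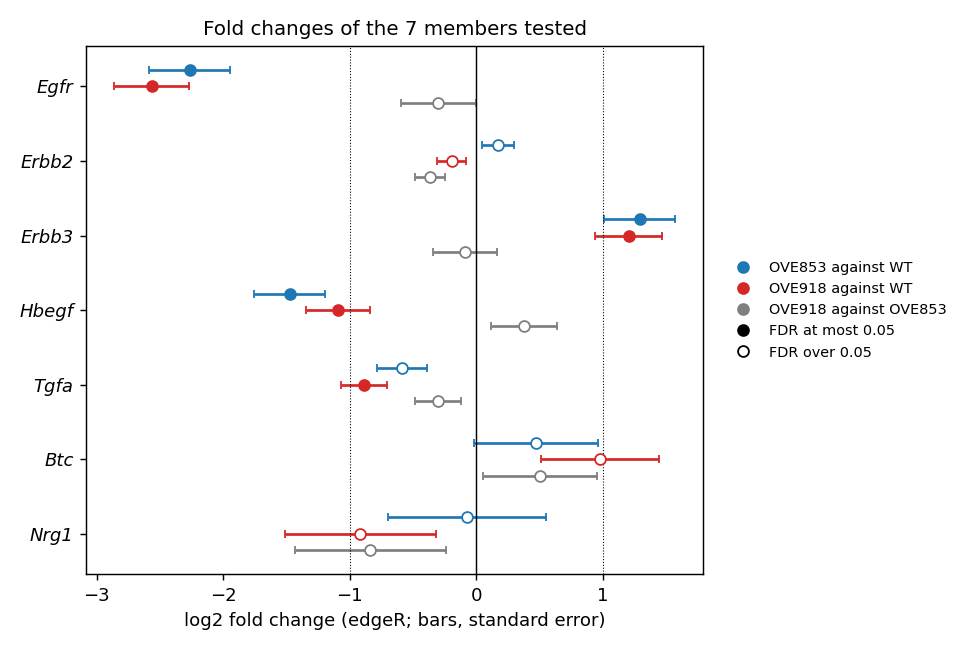
Log2 fold changes (horizontal axis) of the 7 tested members for OVE853 against WT, OVE918 against WT and OVE918 against OVE853, with bars for the standard error, filled points for an FDR of at most 0.05 and dotted lines at an absolute log2 fold change of 1. Filled points are seen for Egfr, Erbb3 and Hbegf in both lines and for Tgfa in OVE918 alone, where Tgfa stays inside the dotted line.

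The members were then ranked by FPKM within each group. In WT the order was Hbegf at 19.9 ± 5.93 FPKM, Erbb2 at 7.32 ± 0.965, Egfr at 3.32 ± 1.47 and Tgfa at 2.54 ± 0.608 (SD, n = 3), of which Egfr and Tgfa overlapped. Btc, Erbb3, Nrg1 and Areg followed with means of 0.128 to 0.253 FPKM and overlapped each neighbour in the order, and Ereg was at 0. In OVE853, Erbb2 at 8.23 ± 0.162 FPKM and Hbegf at 7.17 ± 2.21 overlapped at the head, followed without overlap by Tgfa at 1.70 ± 0.0503, Egfr at 0.692 ± 0.0200 and Erbb3 at 0.551 ± 0.0194 (SD, n = 3). In OVE918, Hbegf was at 9.34 ± 2.08 FPKM, Erbb2 at 6.39 ± 0.800, Tgfa at 1.38 ± 0.222, Egfr at 0.560 ± 0.150, Erbb3 at 0.517 ± 0.146 and Btc at 0.507 ± 0.129 (SD, n = 4), of which the last 3 overlapped. Egfr thus stood above Tgfa in mean FPKM in WT and below it in both lines, without overlap in the lines. These ranks depend on the exon length. With the exons of all annotated transcripts, Hbegf had a mean of 9.27 FPKM in WT, 3.34 in OVE853 and 4.35 in OVE918, and then lay below Erbb2 in both lines, where Erbb2 had means of 7.75 and 6.01 FPKM.

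The libraries of a line and of WT did not overlap for 5 of the 7 tested members in OVE853 (2 higher, 3 lower) and for 4 of 7 in OVE918 (1 higher, 3 lower), where 41.3% (21.0% higher, 20.2% lower) and 25.7% (12% higher, 13.6% lower) of all tested genes did not overlap. Both comparisons share the WT libraries. In 5 of the 7 tested members, Egfr, Hbegf, Tgfa, Btc and Nrg1, WT replicate 1 was the lowest WT library and WT replicate 3 the highest, an order that 24.2% of all tested genes had. Against OVE853, OVE918 did not overlap for 3 of 7 members (Btc higher, Erbb2 and Tgfa lower), where 23.8% of all genes did not overlap (11% higher, 12.8% lower). Their log2 fold changes were 0.50 for Btc (SE 0.45, FDR 0.584), -0.37 for Erbb2 (SE 0.12, FDR 0.155) and -0.30 for Tgfa (SE 0.18, FDR 0.413). At an unadjusted p under 0.05, 1 of the 7 members was found by edgeR, 1 by DESeq2 and 2 by limma voom, where 17.7%, 18.8% and 27.7% of all genes were. Of these tools limma voom alone called a member by FDR, the lower Erbb2, where 6.02% of all genes were called by DESeq2 and 9.54% by limma voom. Egfr differed between the lines by -0.30 (SE 0.30, FDR 0.619) and Erbb3 by -0.09 (SE 0.25, FDR 0.877), whereas Tgfb1 was higher in OVE918 by 1.16 (FDR 0.00731), all on the log2 scale.

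For each DEG among the members, the 3 genes with the smallest root mean square difference in log2 CPM, centred over the 10 libraries, were looked up. For Egfr these were Aass (0.216), Col6a2 (0.255) and Gm49227 (0.260), on a scale where Egfr itself spread by 1.14 about its mean. For Hbegf they were S100a1 (0.232), Pdlim4 (0.267) and Sgk3 (0.295), against a spread of 0.678. For Erbb3 they were Tmem45a (0.194), ND6 (0.202) and Inhbb (0.205), against a spread of 0.604. The profile follows the differences between groups as well as those between libraries of a group.

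The rest of the family comprises Egf, Epgn, Nrg2, Nrg3, Nrg4 and Erbb4, of which 5 were tested and edgeR called Nrg2 alone. Nrg2, which encodes neuregulin 2, a ligand of ERBB3 and ERBB4, was at 18.2, 26.8 and 30.6 CPM in WT, at 7.70, 7.25 and 7.55 CPM in OVE853 and at 5.17, 4.61, 4.98 and 2.41 CPM in OVE918. The 3 groups did not overlap, and WT replicate 1 was again the lowest WT library. Relative to WT, the log2 fold change was -1.75 in OVE853 (SE 0.26, edgeR FDR 0.00228) and -2.55 in OVE918 (SE 0.25, edgeR FDR 8.1e-05), and both calls held in all 17 alternatives. Egf itself was at 1.17 to 1.65 CPM in WT, 1.31 to 1.77 CPM in OVE853 and 0.865 to 1.72 CPM in OVE918, with overlapping groups and FDRs of 0.735 and 0.769. Nrg3 had 2.76 CPM in WT replicate 3 and at most 0.657 CPM in any other library, and Nrg4 was at most 1.23 CPM. With all libraries edgeR called neither, with FDRs from 0.0797 to 0.343. Nrg3 in OVE853, where the log2 fold change was -3.19, was called by DESeq2 (-3.22, FDR 0.0257) and by edgeR without WT replicate 1 (-3.68, FDR 0.0321). Over single libraries left out, that value ranged from -3.80 to -1.21, with edgeR FDRs of up to 0.467. Nrg3 had 84 counts in WT replicate 3, against 4 and 10 in WT replicates 1 and 2. Epgn, which encodes epigen, had at most 1 count per library and did not pass the filter on low counts.

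Other genes of the pathway were described through lists of genes by role, with 97 of 102 genes tested. By FDR, 23 were elevated and 9 reduced in OVE853, and 24 were elevated and 10 reduced in OVE918. These are 32 and 34 of 97 genes, where 13.6% of all tested genes (6.54% elevated, 7.02% reduced) and 16.9% (6.85% elevated, 10.0% reduced) were called. The 97 genes had a median log2 fold change of 0.17 in the first line and 0.24 in the second, against -0.01 and 0.01 over all tested genes. The lists, like the members, were chosen with earlier results of these data known. These shares and medians are therefore no test of the lists as sets. DEGs numbered 10 (7 elevated, 3 reduced) and 11 (8 elevated, 3 reduced). Over single libraries left out, 12 to 27 were elevated and 5 to 10 reduced in OVE853, and 16 to 25 were elevated and 6 to 12 reduced in OVE918. The median was 0.04 in OVE853 without OVE853 replicate 3 and 0.09 in OVE918 without OVE918 replicate 2. Between the lines edgeR called 0 of the 97, with 20 at an unadjusted p under 0.05, where 17.7% of all genes had one. By FDR, DESeq2 called 3 of the 97 and limma voom 10, against 6.02% and 9.54% of all genes.

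**Figure D4:**
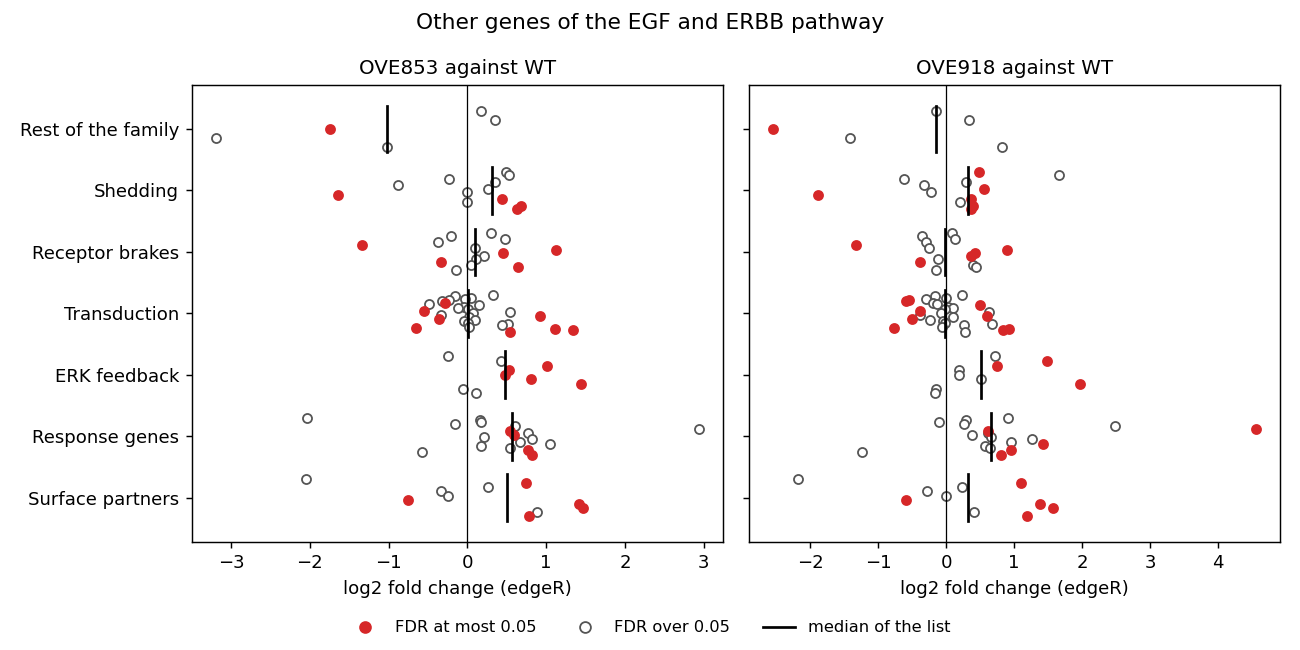
Log2 fold changes (horizontal axis) of the tested genes of 7 pathway lists in OVE853 and OVE918 against WT, with 1 point per gene, filled at an FDR of at most 0.05, and a black bar at the median of each list. The medians of ERK feedback (0.47 and 0.51) and response genes (0.57 and 0.65) lie above 0, the latter at -0.25 without OVE853 replicate 3 and at 0.01 without OVE918 replicate 2, and the reduced filled point in the receptor brakes is Lrig1 with log2 fold changes of -1.34 and -1.33, beside that of Rnf41.

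Of 12 tested genes for ligand shedding, 3 were elevated and 1 reduced in OVE853, and 5 were elevated and 1 reduced in OVE918, with median log2 fold changes of 0.31 and 0.32. Bace2, an aspartic protease gene related to Bace1, whose product cuts neuregulin 1, was the reduced gene, at 14.9 CPM or more in WT, 5.46 to 6.72 CPM in OVE853 and 3.02 to 6.69 CPM in OVE918. Its log2 fold changes were -1.64 (edgeR FDR 0.00655) and -1.88 (edgeR FDR 0.00105), and all transgenic libraries lay below WT. Rhbdf1 and Rhbdf2, which encode the iRhom partners that bring ADAM17 to the surface, rose in OVE853 by 0.69 and 0.63 on the log2 scale (edgeR FDRs 0.00762 and 0.00383). In OVE918 their values were 0.40 and 0.37, with calls that were lost in 11 and 6 of 17 alternatives. Adam9, a membrane protease, rose in OVE918 by 0.56 (edgeR FDR 0.00527) and had 0.27 in OVE853 (FDR 0.136), or 0.39 without WT replicate 1 (FDR 0.0285).

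Of 14 tested genes listed as restraining the receptors or as relatives of such genes, 3 were elevated and 2 reduced in each line. The median log2 fold changes were 0.10 and -0.02. Lrig1, which encodes a transmembrane protein that promotes the breakdown of ERBB receptors, was at 209 to 239 CPM in WT, 83.3 to 93.3 CPM in OVE853 and 84.8 to 92.0 CPM in OVE918. On the log2 scale Lrig1 changed by -1.34 (edgeR FDR 1.4e-05) and -1.33 (edgeR FDR 4.67e-06), and the transgenic libraries lay far below WT. Its relative Lrig3, listed by kinship and not by a shown action on the receptors, rose by 1.13 (edgeR FDR 0.000953) and 0.90 (edgeR FDR 0.00145). Ptpn1, a tyrosine phosphatase gene, rose by 0.45 and 0.42 (edgeR FDRs 0.00674 and 0.00387), with an FDR of 0.0508 in OVE853 when OVE853 replicate 3 was left out. Socs4 had 0.64 in OVE853 (edgeR FDR 0.0471), a call lost in 10 of 17 alternatives, and 0.44 in OVE918 (FDR 0.111), or 0.57 without OVE918 replicate 4 (FDR 0.0417).

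Of 29 tested genes for signal transduction, 4 were elevated and 4 reduced in OVE853, and 4 were elevated and 5 reduced in OVE918, with median log2 fold changes of 0.01 and -0.02. The transcription factor genes Stat5a and Stat3 rose by 1.34 and 1.12 in OVE853 (edgeR FDRs 0.00131 and 0.000212) and by 0.83 and 0.93 in OVE918 (edgeR FDRs 0.00754 and 0.000252). Pik3r1, which encodes a regulatory subunit of PI3K, rose by 0.92 in OVE853 (edgeR FDR 0.00603) and by 0.60 in OVE918 (edgeR FDR 0.0229), where the call was lost in 4 of 17 alternatives. Src, a tyrosine kinase gene, fell by 0.66 and 0.77 (edgeR FDRs 0.00414 and 0.000558).

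Of 9 tested genes that feed back on ERK, 5 were elevated in OVE853 and 3 in OVE918 and 0 were reduced, with median log2 fold changes of 0.47 and 0.51. With single libraries left out, 2 to 5 were elevated in each line, and the medians were 0.41 to 0.78 and 0.35 to 0.69. Spry1, which encodes a Sprouty inhibitor of receptor tyrosine kinase signalling, was at 13.8, 15.1 and 15.4 CPM in WT, at 36.4 to 43.4 CPM in OVE853 and at 48.9 to 61.3 CPM in OVE918. The 3 groups did not overlap, and it rose by 1.45 in OVE853 (edgeR FDR 4.55e-05) and by 1.97 in OVE918 (edgeR FDR 3.02e-06). Dusp6, an ERK phosphatase gene, rose by 1.01 and 0.74 (edgeR FDRs 0.00266 and 0.00608). Dusp5 had 1.48 in OVE918 (edgeR FDR 0.0300), a call lost in 6 of 16 alternatives, and 0.43 in OVE853 (FDR 0.508), where limma voom called it at 1.22 (FDR 0.0464). Spred3 had 0.81 in OVE853 (edgeR FDR 0.0445), a call lost in 9 of 17 alternatives, and 0.51 in OVE918 (FDR 0.135). In OVE918 Spred3 was called without WT replicate 3 (0.89, edgeR FDR 0.00229) and by limma voom (0.88, FDR 0.00326).

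Of 18 tested response genes, which are transcribed soon after receptor activation in many cells, 4 were elevated in OVE853 and 5 in OVE918 and 0 were reduced, with median log2 fold changes of 0.57 and 0.65. These medians rest on single libraries, being -0.25 in OVE853 without OVE853 replicate 3 and 0.01 in OVE918 without OVE918 replicate 2, and with 1 library left out 1 to 4 genes were elevated in OVE853 and 2 to 5 in OVE918. The immediate early genes of the list differed widely within groups, with a highest over lowest library of 9.12-fold to 17.5-fold for Fos, 67.0-fold to 187-fold for Fosb, 6.19-fold to 12.1-fold for Egr1 and 5.85-fold to 31.9-fold for Atf3. WT replicate 1, OVE853 replicate 3 and OVE918 replicate 2 were the highest of their groups in all 4 of these genes, which were chosen after their values were seen and had edgeR FDRs of 0.333 to 0.928 against WT. Phlda1 rose by 0.82 and 0.81 (edgeR FDRs 0.00651 and 0.00295), and both calls held in all 17 alternatives. Klf10, a zinc finger gene also known as an early response gene of TGF-β, rose by 0.76 and 0.95 (edgeR FDRs 0.0398 and 0.00866), with calls lost in 7 and 1 of 17 alternatives. Egr3 had the largest value in OVE918, 4.57 (SE 1.34, edgeR FDR 0.0459), from 24.4 CPM in OVE918 replicate 2 and 1.60 to 6.72 CPM in the other OVE918 libraries. Without OVE918 replicate 2 it was 3.22 (FDR 0.0778), and the call was lost in 10 of 16 alternatives. In OVE853 Egr3 had 2.94 (SE 1.34, FDR 0.162). Ier3 had 1.43 in OVE918 (edgeR FDR 0.0418), a call lost in 10 of 17 alternatives, and 1.05 in OVE853 (FDR 0.127). In OVE853 Ier3 was called without WT replicate 3 (1.56, edgeR FDR 0.0376) and by limma voom (1.93, FDR 0.00720).

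Of 10 tested surface partners of the receptors and their ligands, 4 were elevated and 1 reduced in each line, with median log2 fold changes of 0.50 and 0.32. Itgb4, which encodes the integrin β4 subunit, rose from 1.64 to 2.38 CPM in WT to 4.30 to 6.43 CPM in OVE853 and 4.39 to 7.08 CPM in OVE918, with log2 fold changes of 1.47 and 1.57 (edgeR FDRs 0.00463 and 0.00139). Gpc1 and Sdc1 encode heparan sulfate proteoglycans, a class that binds HB-EGF, and Cd44 encodes the hyaluronan receptor. Gpc1 rose by 1.42 and 1.38 (edgeR FDRs 0.000313 and 0.000151) and Cd44 by 0.75 and 1.09 (edgeR FDRs 0.00211 and 8e-05). Sdc1 rose by 0.78 and 1.19 (edgeR FDRs 0.0257 and 0.00154), with a call in OVE853 that was lost in 6 of 17 alternatives. The reduced gene of this list was Cdh1, the E-cadherin gene, which is also among the lens epithelial markers.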

How the data were processed

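RNA of pooled lens epithelial explants had been sequenced in 10 libraries. Per the methods, reads were trimmed with Cutadapt 5.2, aligned to GRCm39 with STAR 2.7.11b and counted as read pairs on RefSeq genes with featureCounts 2.0.8 in reverse-stranded mode. The authors deposited these raw counts for 50763 genes in a single table, without normalization, and all 10 columns were matched to samples through the sample descriptions.

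The analysis used edgeR 4.0.16 in R 4.3.3. Genes passing filterByExpr by group (minimum count 10) were kept, TMM factors were computed, and a robust quasi-likelihood fit over the 3 groups gave 3 contrasts with Benjamini-Hochberg adjustment over 18058 genes. This filter was used as the main setting in place of the 2 FPKM in 5 libraries of the study's methods, under which Egfr and the low ligands are not tested. The results section of the paper names a larger minimum number of samples, which was not used. CPM are scaled by TMM, and FPKM used the exons of transcripts tagged Primary in GENCODE vM39, with genes matched by symbol. Chi-square per degree of freedom between libraries of a group was 13.9 to 143, so none was a repeat of another. Replicates are pools of mice, and the test sets a difference between groups against the spread between pools, estimated over all 3 groups together. Total counts per library, 24073311 to 31908525, set the precision for low genes.

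Named genes are the 9 members, the rest of the family, Tgfb1, and from each list at most 4 genes called in either line with the largest fold change. The members, lists and markers were chosen with earlier results of these data known, so no list was tested as a set. Alternatives comprised DESeq2 1.42.0, limma 3.58.1 voom with sample weights, upper-quartile normalization, 2 other filters, the replicate block, a fit of the groups compared and leaving out each library. The steps were tested on simulated counts.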

Additional observations from a re-analysis of the deposited data

Results flagged for a closer look

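Erbb3 in OVE918 had a library apart from the others, replicate 3 at 4.43 CPM against 2.54 to 2.77 CPM, with a gap of 0.881 of the group's range, which is above the critical value of Dixon's test for 4 libraries. Among the pathway genes, Ptpn1 in OVE918 had a low library at 35.5 CPM and Spry1 a low library at 48.9 CPM by the same test, and Epgn had a high library at 0.0363 CPM, which is 1 count against 0 in the other OVE918 libraries. Chance flags about 1 in 20 groups.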

How the results depend on the processing

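Of 341 fold changes of members under alternatives, 324 kept direction and side of the threshold, 8 became called, 2 lost the call and 7 changed sign. Over single libraries left out, Nrg1 ranged from -0.47 to 1.29 in OVE853 and from -1.30 to 0.48 in OVE918. The sign changes were those of Nrg1 in OVE853 (0.94 with voom, 0.33 with the replicate block, 1.29 without WT replicate 3, 0.10 without OVE853 replicate 1) and in OVE918 (0.37 with voom, 0.48 without WT replicate 3), and of Erbb3 between the lines (0.0306 with voom). Of 1005 values of pathway genes against WT, 911 were alike, 81 lost and 10 gained the call, and 3 changed sign in OVE918, Egf to 0.0105 without WT replicate 3 and Nrg3 to 0.0919 with voom and 0.58 without WT replicate 3, in leave-one-out ranges of -0.37 to 0.0105 and -1.90 to 0.58. With at least 2 FPKM in 5 libraries, Erbb2 and Hbegf alone of the members were tested, which left 1 member (Hbegf) in each line at either threshold, and 7 pathway DEGs in OVE918. With voom, 5 members were called by FDR in OVE853 and 5 were DEGs in OVE918 (Btc, Egfr, Erbb3, Hbegf and Tgfa), and between the lines 1 member was called by FDR and 2 pathway genes were DEGs. A fit of only the groups compared gave 1 pathway DEG between the lines. Leaving out 1 library gave 2 to 4 member DEGs in each line, 2 to 4 members by FDR in OVE853 and 4 to 5 in OVE918, 9 to 13 pathway DEGs in OVE853 and 8 to 13 in OVE918, and 0 between the lines. The causes were not tested, apart from the smaller number of genes tested under the FPKM filter. Over all genes, FDR calls numbered 2449, 3050 and 68 in the 3 comparisons (OVE853, OVE918 and between the lines), against 3893, 4100 and 1080 by DESeq2 and 4601, 3681 and 1722 by voom, and by FDR between the lines 146 with the FPKM filter, 125 with no filter beyond 1 count and 407 in a fit of only the groups compared. DEGs numbered 1244, 1587 and 44, against 491 and 620 with the FPKM filter in the lines, 825 in OVE853 in a fit of only the groups compared, and 212 by DESeq2, 311 by voom and 168 in that fit between the lines. Leaving out 1 library gave 884 to 3812 FDR calls in OVE853, 2168 to 3846 in OVE918 and 0 to 445 between the lines. The replicate numbers do not pair the libraries (correlation of deviations -0.393 to 0.101 over 9 pairs with the same number, and 1 of 10 libraries correlating best with its own number). With the replicate block, 3 members were called by FDR in OVE853, 4 in OVE918 and 0 between the lines, as without it, and over all genes 1838, 2105 and 6. FPKM with RefSeq lengths was not run, since that table gives genomic spans. Exon lengths of all transcripts were added after seeing the data. Areg, Ereg and Epgn did not pass the low-count filter of the main setting, and their values with no filter beyond 1 count are not given here.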
